A study of Mus musculus with 13 samples.

Results

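Fabp7, Fabp5 and Fabp3 are the 3 fatty acid binding protein genes with a well described place in brain. They were taken by symbol from a table of 37636 gene IDs, and each symbol matched 1 row, so the set holds 3 of 3 named genes. The set was chosen by the FPKM of Fabp7, which was much lower in the exposed groups than in Con. The members' levels in Mod and in 6-OHG set against Con are therefore a description, with no test. The series concerns cognitive dysfunction at high altitude and PI3K/AKT signalling. It holds 13 brain RNA-seq libraries from male Balb/c mice 6 to 8 weeks old.

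In the 6-OHG group, 4 libraries came from mice kept at 8000 m for 24 h with 6-OHG, a compound given here by its code. The Mod group, 5 libraries, had the same exposure without 6-OHG. The Con group, 4 libraries, was kept in normal condition, also without 6-OHG. The labels name no transgene, brain region, dose, collection time or pooling, and they do not say whether each library is a separate animal, so p-values measure the spread between these libraries, which may be technical. The values are FPKM, sequenced fragments scaled by transcript length and by the depth of the library. The deposited FPKM gave no usable read totals, so no counting error is given.

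Fatty acid binding proteins are small cytosolic carriers, folded as a barrel around 1 long-chain fatty acid, that move lipids between membranes, enzymes and nuclear receptors. Fabp7, the brain lipid binding protein, is made by radial glia and astrocytes and prefers docosahexaenoic acid. Fabp5, the epidermal form, is found in neurons, glia and brain endothelium and carries fatty acids and retinoic acid to PPAR receptors, while Fabp3, the heart form, is the main form of adult neurons. In mouse brain Fabp7 mRNA is known to vary over the day and to be repressed by the clock protein REV-ERB alpha.

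All 3 genes lie on the plus strand of GRCm38. Fabp7 (ENSMUSG00000019874) is at chr10:57784881-57788450, Fabp5 (ENSMUSG00000027533) at chr3:10012548-10016607 and Fabp3 (ENSMUSG00000028773) at chr4:130308595-130315463. The first 90 bases of each coding sequence, from GENCODE M21, are shown because the members' reads are told apart by such differences. Capitals mark bases that differ from Fabp7 in the alignment of the whole coding sequences, 38 in the Fabp5 stretch and 22 in the Fabp3 stretch.
Fabp7: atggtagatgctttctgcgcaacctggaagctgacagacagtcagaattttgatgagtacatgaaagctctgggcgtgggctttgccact
Fabp5: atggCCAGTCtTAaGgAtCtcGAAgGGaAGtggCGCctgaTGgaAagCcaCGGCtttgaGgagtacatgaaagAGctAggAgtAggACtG
Fabp3: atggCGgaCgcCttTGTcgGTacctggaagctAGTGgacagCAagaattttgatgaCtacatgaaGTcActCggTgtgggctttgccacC
Over the whole coding sequences of 399, 408 and 402 bases, Fabp3 and Fabp7 were identical at 66.7% of aligned bases, Fabp5 and Fabp7 at 58.5% and Fabp3 and Fabp5 at 58.25%.

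Fabp3 has a processed pseudogene copy, Fabp3-ps1 on chromosome 10, that is 99.3% identical over 402 bases. Its start is shown against that of Fabp3, with the 1 differing base in capitals.
Fabp3: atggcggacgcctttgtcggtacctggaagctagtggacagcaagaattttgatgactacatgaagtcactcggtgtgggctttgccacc
Fabp3-ps1: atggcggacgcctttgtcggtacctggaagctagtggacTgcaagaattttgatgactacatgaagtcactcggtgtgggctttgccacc
Fabp3-ps1 averaged 1.15 ± 0.198 FPKM in 6-OHG, 0.960 ± 0.199 FPKM in Mod and 0.641 ± 0.203 FPKM in Con (SD, n = 4, 5 and 4). Fabp3 also overlaps Gm10570 and Zcchc17 on the other strand, and whether reads were counted by strand is not given. The Fabp3 values are uncertain to the extent that such reads were shared. The Fabp5 copy Fabp5l2 was at 0 FPKM in every 6-OHG and Mod library and at most 0.0205 FPKM in Con.

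The 208 bases before the Fabp7 start are shown because Fabp7 is the member whose level differed most, with the motifs found in capitals. The sequence is RefSeq's on GRCm38.p6, at chr10:57784673-57784880, plus strand.
Fabp7: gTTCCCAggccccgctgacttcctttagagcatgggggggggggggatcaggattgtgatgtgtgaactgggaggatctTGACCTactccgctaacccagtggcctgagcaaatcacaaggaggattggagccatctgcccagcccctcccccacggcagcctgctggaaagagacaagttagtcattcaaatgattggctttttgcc
Motifs were searched on both strands. TGGGAA, the core bound by the Notch partner RBPJ, was found on the minus strand 207 bases before the gene start, and AGGTCA, a hexamer bound by nuclear receptors, on the minus strand 129 bases before it. In windows of the same place and length before 32817 genes, TGGGAA was present in 18.5% and AGGTCA in 11.9%. The E-box CACGTG, the hypoxia response core ACGTG, which the E-box contains, and the octamer ATGCAAAT were not found in this window, and they were present in 4.59%, 13.6% and 1.38% of windows.

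Before the levels of the members, the state of the libraries bears on how they are read. FPKM sums per library were 272992 to 278335 in 6-OHG, 282978 to 312908 in Mod and 268208 to 299371 in Con. Every 6-OHG sum was thus under every Mod sum. Genes of the mitochondrial genome took 20.6% to 28.7% of the sums. Library pairs correlated at 0.957 to 0.989 within groups and 0.932 to 0.981 between groups. The median correlation with the rest of its group was lowest in 6-OHG replicate 2 (0.966) and Con replicate 4 (0.969). All 13 astrocyte markers were expressed, with summed levels of 905.6 to 1160 FPKM in 6-OHG, 944.5 to 1139 FPKM in Mod and 910.0 to 1096 FPKM in Con, and neuron markers summed to 1018 to 1306, 986.9 to 1132 and 947.7 to 1257 FPKM. Liver markers other than Ttr, which the choroid plexus also makes, reached a sum of at most 0.958 FPKM in 6-OHG, 0.359 to 1.25 FPKM in 4 Mod libraries and 35.7 FPKM in Mod replicate 3, against 37.6 to 52.1 FPKM in Con. The Fabp7 level of Mod replicate 3 lay within those of the other Mod libraries.

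Fabp7 was at 4.32, 5.57, 5.08 and 6.02 FPKM in the 4 6-OHG libraries. It was at 10.2, 9.14, 10.2, 7.04 and 12.7 FPKM in the 5 Mod libraries and at 24.9, 24.7, 27.3 and 26.8 FPKM in the 4 Con libraries. The 3 groups did not overlap, with every 6-OHG library under every Mod library and every Mod library under every Con library. Means were 5.25 ± 0.728 FPKM in 6-OHG, 9.85 ± 2.04 FPKM in Mod and 25.9 ± 1.31 FPKM in Con (SD, n = 4, 5 and 4).

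**Figure D1:**
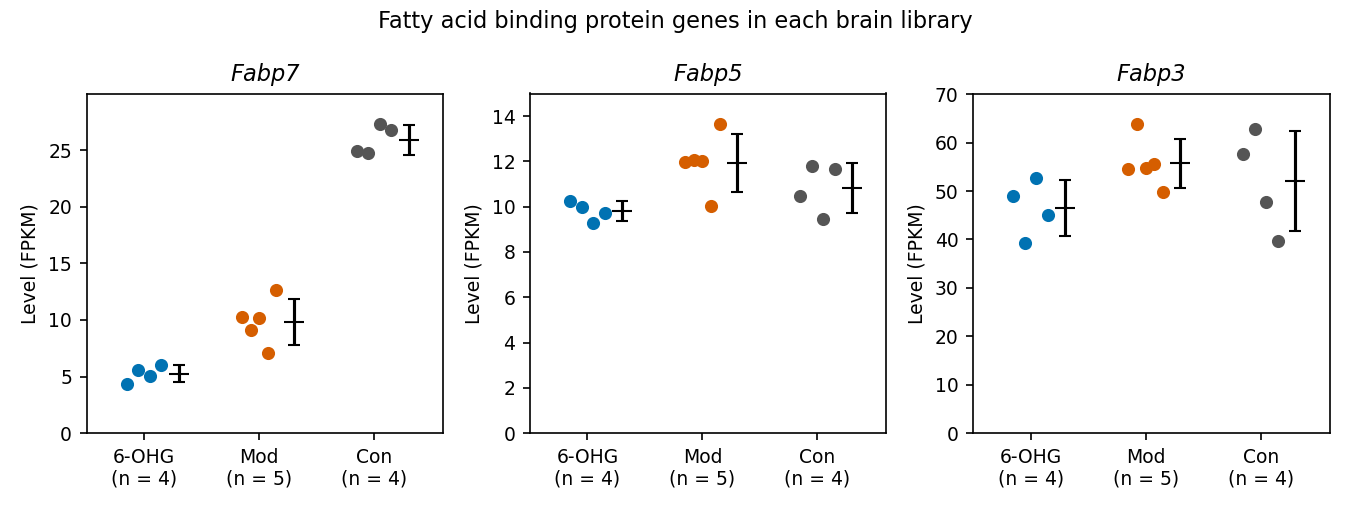
Levels of Fabp7, Fabp5 and Fabp3 in FPKM, 1 point per library, by group, with the mean and SD beside the points. The Fabp7 groups do not overlap, at 4.32 to 6.02 FPKM in 6-OHG, 7.04 to 12.7 FPKM in Mod and 24.7 to 27.3 FPKM in Con, while the Fabp5 and Fabp3 ranges overlap.

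The Mod mean of Fabp7 was 38.0% of the Con mean, and the difference of mean log2(FPKM + 1), the scale of all log2 differences here, was -1.33. Among the 13905 genes tested, those whose mean over all libraries reached 1 FPKM, it ranked 19 from the lowest difference. Fabp7 was the 1 member of 3 whose Mod and Con libraries did not overlap, as was the case for 22.4% of the 13905 genes, 8.87% with Mod lower. In the 6-OHG group the mean was 20.3% of the Con mean, a difference of -2.11 and rank 14, and again Fabp7 was the 1 member without overlap, against 28.1% of genes, 12.5% with 6-OHG lower. These values chose the gene, and nothing is drawn from them. Both comparisons share the Con libraries.

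The comparison of 6-OHG with Mod asks whether the members differed between exposed mice with and without the compound. The choice of members did not use it, though it shares the Mod and 6-OHG libraries with that choice and was made with results of these data known. Fabp7 fell to 5.25 FPKM in 6-OHG, against 9.85 FPKM in Mod, so that the 6-OHG mean was 53.3% of the Mod mean. The log2 difference was -0.78, with a standard error of 0.13, a 95% interval of -1.05 to -0.51 and a limma adjusted p of 0.00212. It was called at an adjusted p under 0.05, as were 15.3% of the genes tested, 6.98% as higher and 8.35% as lower. Fabp7 was lower in 4 of 4 6-OHG libraries than in any Mod library, as were 8.34% of genes tested, with rank 60 among the 13905 differences. The median difference of all genes tested was -0.02. Without Mod replicate 3, the Mod library with liver markers, the Fabp7 difference was -0.77 (adjusted p of 0.00716), and without 6-OHG replicate 2 and Con replicate 4 it was -0.81 (0.0038). The call ended in the fit that removed each library's dependence on exon length and GC content and used the replicate number as a block. That fit gave -0.63 and an adjusted p of 0.0603. Only Mod has a replicate 5, so the block gives that library, the highest of Mod for Fabp7, no weight in the difference. Without Mod replicate 5 and with no block the difference was -0.69 (adjusted p of 0.0044).

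Fabp5 was at 10.3, 10.0, 9.27 and 9.70 FPKM in 6-OHG. It was at 12.0, 12.1, 12.0, 10.0 and 13.6 FPKM in Mod and at 10.5, 11.8, 9.44 and 11.7 FPKM in Con. Mod replicate 4 was the low library of its group and lay within the 6-OHG range, so these groups overlapped, and the Con libraries spanned most of the 6-OHG range. Means were 9.81 ± 0.424 FPKM in 6-OHG, 11.9 ± 1.28 FPKM in Mod and 10.8 ± 1.11 FPKM in Con (SD, n = 4, 5 and 4).

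For Fabp5 the log2 difference between 6-OHG and Mod was -0.26, with a standard error of 0.08, a 95% interval of -0.43 to -0.08 and a limma adjusted p of 0.0503, just above the threshold, so it was not called. The gene was called without Mod replicate 4, the library inside the 6-OHG range, at -0.31 and an adjusted p of 0.0158. It was also called without Con replicate 3 (adjusted p of 0.0409) or Con replicate 4 (0.0482), which enter through the shared estimate of spread. With libraries rescaled to equal sums the difference between 6-OHG and Mod was -0.16 (limma adjusted p of 0.156). Set against Con, the log2 difference was 0.13 in Mod and -0.13 in 6-OHG, given as a description.

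Fabp3 was at 49.0, 39.4, 52.8 and 45.1 FPKM in 6-OHG. It was at 54.6, 63.8, 54.8, 55.6 and 49.7 FPKM in Mod and at 57.7, 62.9, 47.8 and 39.6 FPKM in Con. All groups overlapped, and the Con libraries alone spanned nearly the whole range. Means were 46.5 ± 5.74 FPKM in 6-OHG, 55.7 ± 5.07 FPKM in Mod and 52.0 ± 10.35 FPKM in Con (SD, n = 4, 5 and 4).

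For Fabp3 the log2 difference between 6-OHG and Mod was -0.26, with a standard error of 0.13, a 95% interval of -0.53 to 0.01 and a limma adjusted p of 0.183. It did not pass the test, and a fall as large as -0.53 lies inside the interval. The difference became -0.03 once dependence on exon length and GC content was taken out. Set against Con, it was 0.11 in Mod and -0.14 in 6-OHG as a description, and the Mod value became -0.0067 without Con replicate 4, the lowest Con library. In each group the library with the lowest Fabp3 was also the one with the lowest sum of striatum markers. These sums were 70.4 FPKM in 6-OHG replicate 2, 115.9 FPKM in Mod replicate 5 and 276.6 FPKM in Con replicate 4. The other libraries of 6-OHG and Mod did not all keep this order. 6-OHG replicate 3 had the highest Fabp3 of its group with a striatum sum of 189.0 FPKM, under those of replicates 1 and 4. Mod replicates 1 and 3 had like Fabp3 levels, 54.6 and 54.8 FPKM, with striatum sums of 167.5 and 627.4 FPKM. In Con, replicates 3 and 4 were the lowest in both. The part of striatal tissue in the Fabp3 values was not tested.

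**Figure D2:**
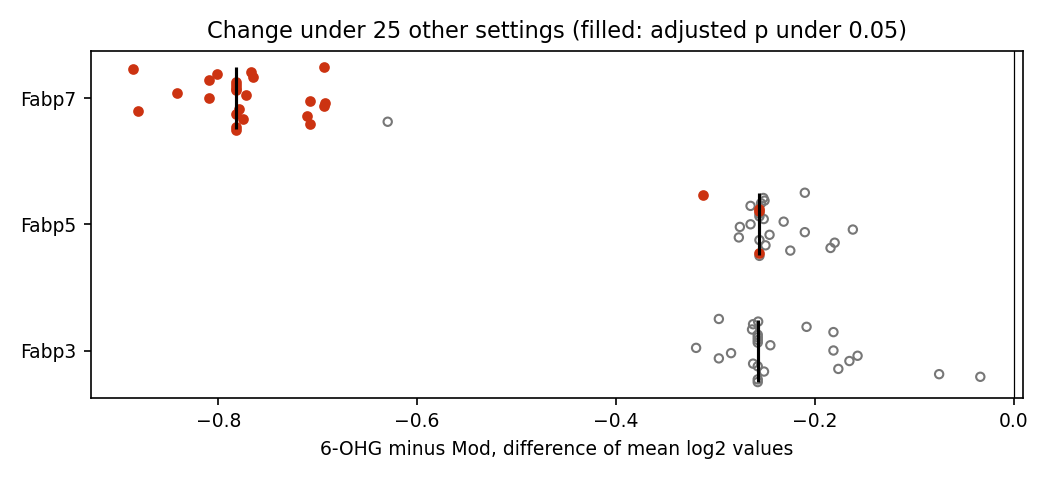
Log2 difference of each member between 6-OHG and Mod under 25 other settings, 1 point per setting, filled where the adjusted p was under 0.05, with a black line at the value reported. Fabp7 lies between -0.89 and -0.63 and is open in 1 setting, Fabp5 lies between -0.31 and -0.16 and is filled in 4, and Fabp3 lies between -0.32 and -0.03 and is open in every setting run.

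The balance among the 3 carriers differed between the groups with the Fabp7 level. Fabp3 had the highest FPKM of the 3 in every library. Fabp5 was above Fabp7 in 4 of 4 6-OHG libraries and 5 of 5 Mod libraries, and below it in 4 of 4 Con libraries. Fabp7 made up 6.80% to 10.1% of the summed FPKM of the 3 genes in 6-OHG, 9.69% to 16.7% in Mod and 24.9% to 34.3% in Con. The sum itself was 54.9 to 67.1 FPKM in 6-OHG, 72.7 to 85.0 FPKM in Mod and 78.1 to 99.3 FPKM in Con. These shares follow from the levels that chose the set. The order of Fabp5 and Fabp7 also depends on the gene length behind the FPKM, which is not given. The exons of Fabp5 in GENCODE M21 cover 3567 bases because a transcript with a retained intron is included, those of Fabp7 1250 bases and those of Fabp3 823 bases.

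**Figure D3:**
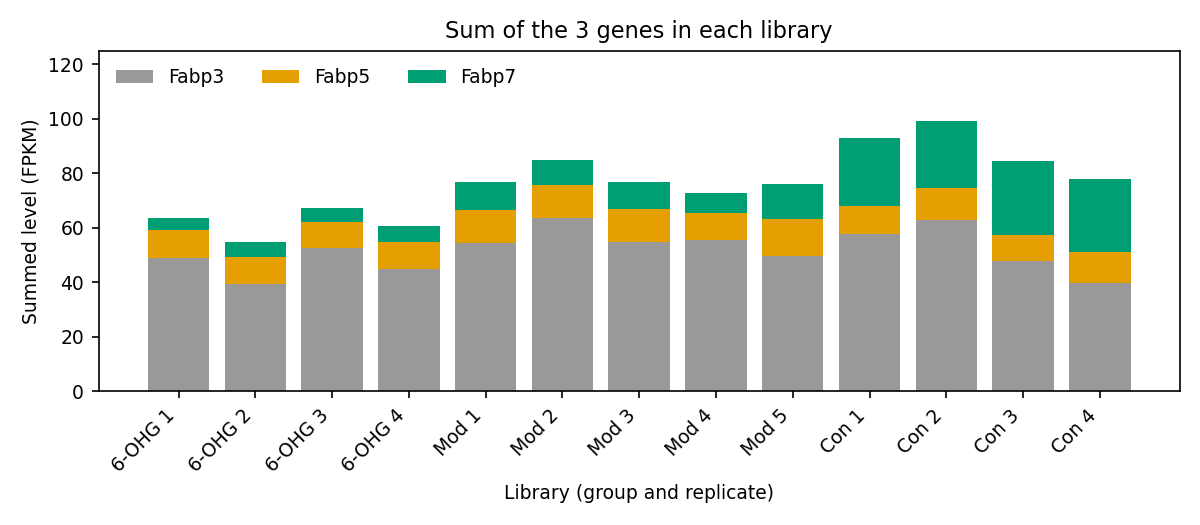
Summed level of Fabp3, Fabp5 and Fabp7 in FPKM in each library, stacked by gene, with the 6-OHG libraries on the left, then Mod, then Con. The Fabp7 segment is 6.80% to 10.1% of the bar in 6-OHG, 9.69% to 16.7% in Mod and 24.9% to 34.3% in Con, and the Fabp3 segment is the tallest in every bar.

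Differences between 6-OHG and Mod varied with gene length across the whole table. The median log2 difference was -0.16 for genes with under 1 kb of exons, -0.18 for 1 to 2 kb, which holds Fabp7, -0.08 for 2 to 4 kb, and 0.05 for 4 kb or more. With each library's dependence on exon length and GC content taken out, Fabp7 was at -0.71 (limma adjusted p of 0.00681) and Fabp5 at -0.22 (0.107). With the replicate block added, Fabp7 did not pass, as given above.

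Fabp7 is an astrocyte and radial glia gene, and in bulk tissue fewer cells of a type and less RNA per cell cannot be told apart. Of the 13 astrocyte markers, 0 passed the test between 6-OHG and Mod, beside 15.3% of all genes called. Their median difference was -0.01, against -0.02 over all genes. Between Mod and Con, 2 rose (the gap junction gene Gjb6 and the glutamine synthetase Glul) and 2 fell (the water channel Aqp4 and the gap junction gene Gja1), with a median of -0.07, against 23.8% of all genes called and a median of 0.01. Per 1000 FPKM of astrocyte markers, Fabp7 stood at 4.46 to 6.65 FPKM in 6-OHG, 7.27 to 11.9 FPKM in Mod and 23.3 to 29.2 FPKM in Con. This ratio was chosen after the levels were seen. Its numerator is the level that chose the set and its denominator covers like ranges in the groups, so nothing is drawn from it.

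Of the 12 markers of radial glia and neural progenitors, 8 were tested. Between Mod and Con the filament genes Vim and Nes rose, to 13.8 ± 1.45 and 3.48 ± 0.584 FPKM in Mod against 5.63 ± 0.692 and 1.73 ± 0.333 FPKM in Con, and Prom1 fell to 1.52 ± 0.262 FPKM in Mod against 3.48 ± 0.157 FPKM in Con (SD, n = 5 and 4). These 2 rises and 1 fall stand beside 14.0% of all genes called higher and 9.81% lower. Between 6-OHG and Mod 0 of the 8 passed, beside 15.3% of all genes called. Pax6, Eomes, Mki67 and Top2a had mean levels under 1 FPKM in every group. Of 10 Bergmann glia and cerebellum markers, 6 were under the 1 FPKM filter, among them the granule cell gene Gabra6 and the Purkinje cell gene Pcp2. The list summed to 29.9 to 45.1 FPKM in 6-OHG, 28.6 to 37.2 FPKM in Mod and 31.9 to 50.3 FPKM in Con. Of the 4 tested, 0 passed between Mod and Con or between 6-OHG and Mod. In each, 3 differences were below 0 and 1 above, with medians of -0.31 and -0.26. Between 6-OHG and Con 1 fell and 0 rose, with a median of -0.48, beside 14.4% of all genes called lower.

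Sums of oligodendrocyte markers followed Fabp7 in some libraries. The 12 markers summed to 656.1 to 1193 FPKM in 6-OHG, 807.7 to 1888 FPKM in Mod and 1206 to 1634 FPKM in Con, and none was at 0. Mod replicate 4, the lowest Mod library for Fabp7, had the lowest Mod sum, and Mod replicate 5, the highest, had the highest. The lowest 6-OHG library for Fabp7, replicate 1, likewise had the lowest 6-OHG sum, while replicate 3, with the highest 6-OHG sum, had a lower Fabp7 level than replicates 2 and 4. The part of these cells in the Fabp7 levels was not tested. In 6-OHG against Mod 1 marker, the lineage factor Olig1, fell, 0 rose and the median difference was -0.32, beside 8.35% of all genes called lower. Between Mod and Con 3 fell and 0 rose, with a median of -0.30, beside 9.81% of all genes called lower. Per 1000 FPKM of these markers Fabp7 stood at 4.26 to 6.58 FPKM in 6-OHG, 6.72 to 8.72 FPKM in Mod and 16.4 to 20.6 FPKM in Con. This ratio too has the level that chose the set as its numerator, and it is given as a description, in which the 6-OHG and Mod ranges nearly met.

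**Figure D4:**
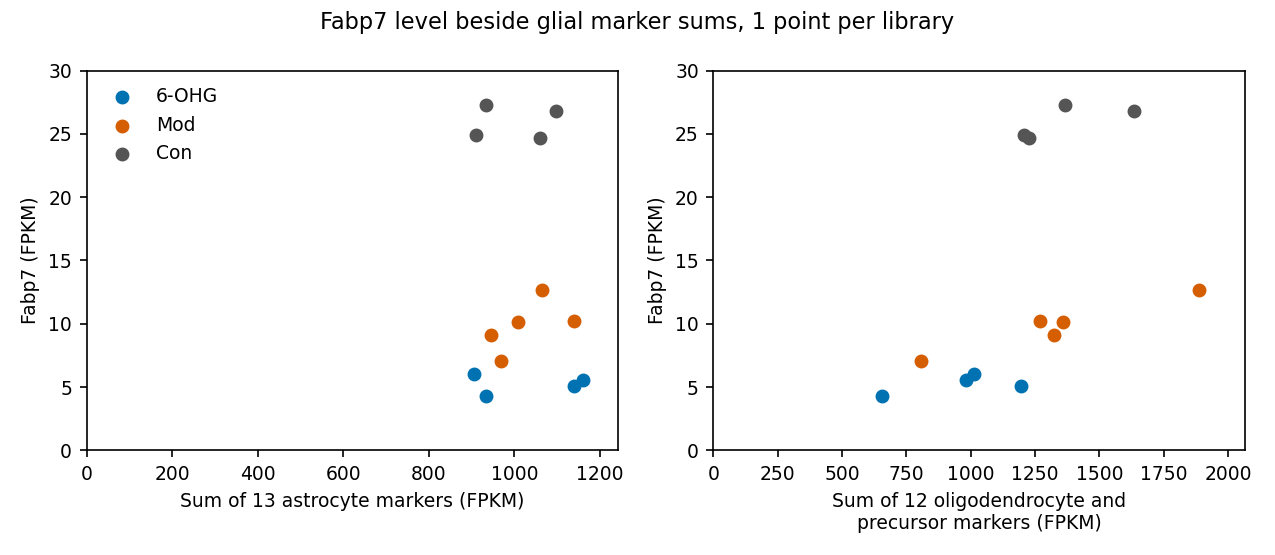
Fabp7 level in FPKM against the summed FPKM of 13 astrocyte markers (left panel) and of 12 oligodendrocyte and precursor markers (right panel), 1 point per library. The 3 groups cover like ranges of the astrocyte sum while their Fabp7 levels are separate, and within Mod the libraries with the lowest and the highest oligodendrocyte sum are also those with the lowest and the highest Fabp7.

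Endothelial, microglial and striatal lists, whose cells or regions could also differ between the samples, were measured beside these. Over all genes, 14.0% were called higher and 9.81% lower between Mod and Con, and 6.98% and 8.35% between 6-OHG and Mod. Of 11 endothelial markers 6 rose and 3 fell between Mod and Con, and 1 rose and 1 fell between 6-OHG and Mod. Of 10 microglial markers 0 rose and 2 fell between Mod and Con, and 0 rose and 1 fell between 6-OHG and Mod. Of 9 striatum markers 0 passed in either comparison, though 8 of 9 had lower means in 6-OHG than in Mod. Their sums varied widely within groups, at 70.4 to 500.1 FPKM in 6-OHG, 115.9 to 627.4 FPKM in Mod and 276.6 to 490.2 FPKM in Con. The choroid plexus list, with 2 of 8 members tested, had 0 calls in both comparisons. Its median difference was -0.68 between Mod and Con and -0.88 between 6-OHG and Mod. The 8 members summed to 5.07 to 361.4 FPKM in 6-OHG, 47.8 to 253.5 FPKM in Mod and 282.4 to 697.8 FPKM in Con. Whether these lists have a part in the member values was not tested.

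The genes whose levels most resembled Fabp7 over the 13 libraries were sought among 7119 named genes whose mean reached 5 FPKM. They were Tufm, a mitochondrial translation elongation factor (Pearson r of 0.980), Cryab, a small heat shock protein of glia (0.980), Stmn1, a microtubule regulator (0.975), Hacd3 (0.971), Enoph1 (0.964) and the RNA-binding protein Hnrnpa2b1 (0.962). Cryab averaged 20.2 ± 2.19 FPKM in 6-OHG, 27.1 ± 3.92 FPKM in Mod and 54.0 ± 4.54 FPKM in Con (SD, n = 4, 5 and 4), the same order of groups as Fabp7. Thap12 (-0.981), Ncapd3 (-0.972) and Dnajc10 (-0.970) ran most nearly opposite. The 13 points share their groups, so any gene with the same order of groups scores high, and the values are a description.

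After group means were subtracted, which leaves the differences between libraries of 1 group, the genes most like Fabp7 were the pseudogenes Rpl35a-ps4 (0.929) and Rpl35a-ps2 (0.913), the tetraspanin Cd9 (0.916), the fatty acid elongase Elovl1 (0.914), Prr18 (0.901) and the histone methyltransferase Kmt5a (0.893). Cd9, Elovl1 and Prr18 are expressed in oligodendrocytes. Elovl1 averaged 5.97 ± 0.953 FPKM in 6-OHG, 7.98 ± 2.08 FPKM in Mod and 8.01 ± 1.10 FPKM in Con (SD, n = 4, 5 and 4).

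The members resembled each other little. Over the 13 libraries Fabp7 correlated with Fabp5 at 0.30 and with Fabp3 at 0.12, and Fabp5 with Fabp3 at 0.28. After subtraction of group means the values were 0.53, -0.42 and -0.13. Closest to Fabp5 over the libraries were the selenoprotein gene Selenok (0.900), the coatomer subunit gene Cope (0.899) and Scp2, a sterol and lipid carrier (0.877). Closest to Fabp3 were the galactose enzyme gene Galt (0.936), Zbtb17 (0.935) and Ptms (0.919). None of these was tested for shared function.

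Other members of the lipid binding family were scarce. Of 12 further fatty acid and retinoid binding protein genes, 11 were in the table and 4 had a mean level high enough to be tested. Fabp4, the adipocyte form, averaged 0.0823 FPKM in 6-OHG, 0.431 FPKM in Mod and 0.605 FPKM in Con, and Fabp2, Fabp6, Fabp12, Pmp2, Rbp2 and Rbp7 were at most 0.175 FPKM on average in any group. Fabp1, the liver form, was listed at 0 FPKM in all 4 6-OHG libraries, at 0 to 0.103 FPKM in 4 Mod libraries and at 2.49 FPKM in Mod replicate 3, and at 3.27 to 5.11 FPKM in Con. It fell in Mod and in 6-OHG against Con, together with the liver list, of which 5 of the 6 members tested, Fabp1 included, fell in each comparison. Of the 4 binding protein genes tested, 0 passed between 6-OHG and Mod, beside 15.3% of all genes called.

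Of 17 genes that take up fatty acids or make, bind or split their coenzyme A esters, 13 were tested. Between Mod and Con 1 rose and 2 fell, with a median of -0.12, a count of calls near the 23.8% of all genes. Mfsd2a, the transporter of docosahexaenoic acid at the blood-brain barrier, rose by 0.85 on the log2 scale (limma adjusted p of 0.004), with 14.0 ± 2.73 FPKM in Mod against 7.24 ± 0.595 FPKM in Con (SD, n = 5 and 4). The acyl-CoA synthetase Acsl4 fell by 0.30 (0.0112). Acsl6, the synthetase specific for docosahexaenoic acid, fell by 0.25 (0.0183), a call lost without Con replicate 2 (-0.22, adjusted p of 0.0546).

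Of these 13 genes 2 rose and 2 fell between 6-OHG and Mod, with a median of -0.05 against -0.02 over all genes, of which 15.3% were called. The fatty acid transporter Slc27a1 averaged 9.48 ± 0.824 FPKM in 6-OHG and 11.6 ± 0.228 FPKM in Mod (SD, n = 4 and 5) and fell by 0.27 (limma adjusted p of 0.0128), a call lost with libraries rescaled to equal sums (-0.17, 0.111). The thioesterase Acot7 fell by 0.38 (0.0215), and Acsl4 and Acsl1 rose by 0.26 (0.0336) and 0.21 (0.0359). The calls of Acot7, Acsl4 and Acsl1 were lost when 1 of 3, 6 and 6 single libraries was left out, among them 6-OHG replicate 4, without which the adjusted p was 0.0626, 0.0923 and 0.0951. They were also lost once dependence on length and GC content was taken out, at -0.21 (0.165), 0.19 (0.104) and 0.07 (0.505).

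These carriers are known to bring ligands to PPAR and retinoic acid receptors in the nucleus. Of 9 PPAR, RXR and retinoic acid receptor genes tested, the coactivator gene Ppargc1a included, 0 passed between Mod and Con, beside 23.8% of all genes called. Between 6-OHG and Mod 1 of the 9 passed, beside 15.3% of all genes called. It was Ppargc1a, which rose by 0.48 (limma adjusted p of 0.0156), with 8.85 ± 2.06 FPKM in 6-OHG against 5.98 ± 0.426 FPKM in Mod (SD, n = 4 and 5). Of 12 PPAR target genes tested, 2 rose and 0 fell between Mod and Con, beside 14.0% of all genes called higher and 9.81% lower. Angptl4, an inhibitor of lipoprotein lipase, averaged 2.88 ± 0.456 FPKM in Mod and 0.571 ± 0.224 FPKM in Con, a rise of 1.31 (8.22e-05), and the mitochondrial carrier gene Ucp2 rose by 0.70 (0.00563). The list median was 0.05. Of the 12 targets 0 passed between 6-OHG and Mod, beside 15.3% of all genes called.

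Genes of fatty acid synthesis, desaturation and elongation were lower in Mod than in Con where they passed. Of 15 tested, 5 fell and 0 rose, with a median of -0.25 against 0.01 over all genes, of which 9.81% were called lower. The fatty acid synthase Fasn averaged 15.7 ± 1.44 FPKM in Mod and 23.8 ± 0.920 FPKM in Con (-0.57, limma adjusted p of 0.000176). The elongase Elovl6 averaged 5.05 ± 0.343 FPKM in Mod and 9.81 ± 1.53 FPKM in Con (-0.83, 0.000534), and its relative Elovl7 2.89 ± 0.578 FPKM in Mod and 6.02 ± 0.783 FPKM in Con (-0.86, 0.00088; SD, n = 5 and 4). In 6-OHG against Mod 1 of 15 passed, beside 15.3% of all genes called. It was Fasn, which rose by 0.24 (0.0438). That call was lost in 17 of 25 other settings, for example without 6-OHG replicate 2, at 0.18 and an adjusted p of 0.098.

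Of 18 genes of fatty acid beta-oxidation tested, 3 fell and 0 rose between 6-OHG and Mod, with a median of -0.09. Over all genes, 8.35% were called lower and 6.98% higher, 15.3% in all. The thiolase Acaa2 averaged 8.43 ± 0.745 FPKM in 6-OHG and 11.5 ± 1.03 FPKM in Mod (SD, n = 4 and 5), a difference of -0.41 (limma adjusted p of 0.0108). The isomerase Eci1 fell by 0.46 (0.0168), lost without 6-OHG replicate 4 (adjusted p of 0.0529), and the electron transfer flavoprotein subunit Etfb by 0.47 (0.0221), lost without 4 single libraries in turn, with the highest adjusted p (0.0683) without 6-OHG replicate 4. None of the 3 passed once dependence on length and GC content was taken out, and Acaa2 did not pass with equal sums (-0.32, 0.0572). Between Mod and Con 1 of 18, the reductase gene Decr1, fell, beside 9.81% of all genes called lower. The Decr1 call was lost in 13 of 24 other settings.

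Lipid droplet and endocannabinoid genes take and give back the lipids these proteins carry. Of 12 lipid droplet genes tested, 3 rose and 0 fell between Mod and Con, beside 14.0% of all genes called higher and 9.81% lower. The droplet coat gene Plin4 was at 6.30 to 11.2 FPKM in Mod and 0.256 to 0.705 FPKM in Con (2.79, limma adjusted p of 1.57e-05, n = 5 and 4). Pnpla2, the lipase of droplets, rose by 1.11 (0.0024) and its inhibitor Hilpda by 0.81 (2.52e-05). Between 6-OHG and Mod 0 rose and 2 fell, beside 6.98% of all genes called higher and 8.35% lower. The 2 were Hilpda, at 3.76 ± 0.305 FPKM in 6-OHG against 5.15 ± 0.678 FPKM in Mod (-0.36, 0.00968), and the acyltransferase gene Dgat1 (-0.27). The Hilpda call was lost once dependence on length and GC content was taken out (-0.19, 0.183) and with equal sums (-0.28, 0.0564), and that of Dgat1 in 13 of 25 other settings. Of 9 endocannabinoid genes tested, 1 rose and 0 fell between Mod and Con, beside the 14.0% and 9.81% of all genes given above. It was the amidase gene Naaa (0.25), a call lost without Con replicate 3 (0.21, adjusted p of 0.0616) and with equal sums (0.19, 0.12). Between 6-OHG and Mod 0 of the 9 passed, beside 15.3% of all genes called.

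**Figure D5:**
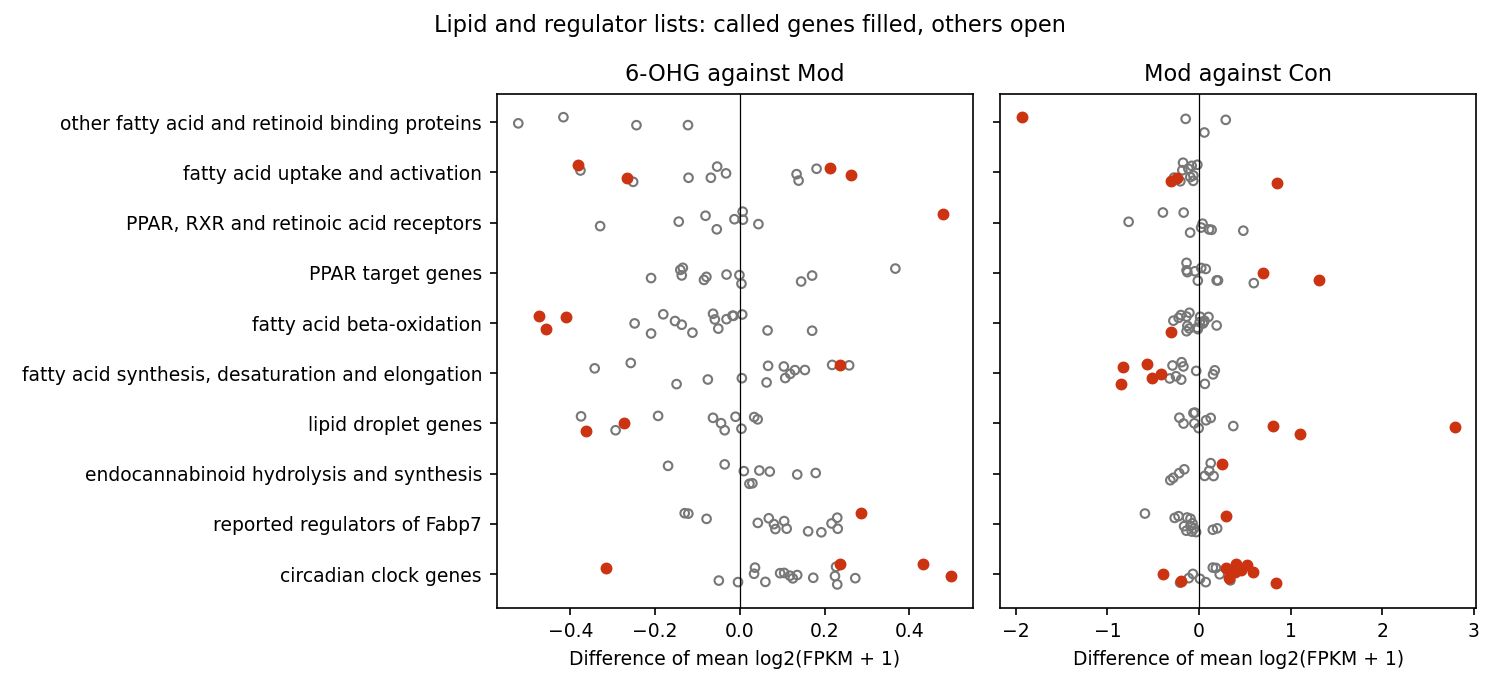
Log2 differences of genes in 10 lipid and regulator lists, 6-OHG against Mod on the left and Mod against Con on the right, 1 point per gene tested, filled where limma called it. In the synthesis list the 5 filled points of Mod against Con lie below 0, and the 3 filled points of the beta-oxidation list in 6-OHG against Mod lie below 0.

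Of 16 genes reported to regulate Fabp7 (Notch receptors and their partners, NFI and POU factors, Pax6 and the REV-ERB genes), 15 were tested. Between 6-OHG and Mod 1 rose and 0 fell, with a median of 0.10, beside 6.98% of all genes called higher and 8.35% lower. Pou3f2, a POU factor of neural progenitors, averaged 5.86 ± 0.818 FPKM in 6-OHG and 4.61 ± 0.443 FPKM in Mod (SD, n = 4 and 5) and rose by 0.29 (limma adjusted p of 0.0399), a call lost in 14 of 25 other settings, for example without 6-OHG replicate 1 (0.23, adjusted p of 0.113). Between Mod and Con 1 rose and 0 fell, with a median of -0.09, beside 14.0% of all genes called higher and 9.81% lower. Nr1d2, which encodes REV-ERB beta, was at 23.7 to 27.1 FPKM in Mod and 17.1 to 23.2 FPKM in Con. It rose by 0.29 (limma adjusted p of 0.0176), a call lost with libraries rescaled to equal sums (0.22, 0.108). Nr1d1, which encodes REV-ERB alpha, averaged 30.1 ± 4.92 FPKM in 6-OHG, 27.8 ± 2.57 FPKM in Mod and 24.9 ± 1.39 FPKM in Con, with differences of 0.10 between 6-OHG and Mod and 0.15 between Mod and Con that did not pass.

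Of the 19 circadian clock genes, all tested, 8 rose and 2 fell between Mod and Con, with a median of 0.23, beside 14.0% of all genes called higher and 9.81% lower. Ciart, a repressor of the clock, averaged 7.17 ± 0.656 FPKM in Mod and 3.60 ± 0.878 FPKM in Con (SD, n = 5 and 4), a rise of 0.84 (limma adjusted p of 0.000421). Between 6-OHG and Mod 3 rose (Per1, Rora and Clock) and 1 fell (Dbp), with a median of 0.12, beside 6.98% and 8.35% of all genes. The call of Clock was lost in 9 of 25 other settings, that of Dbp in 20 and that of Rora in 3. Per1, a core repressor, averaged 19.5 ± 1.68 FPKM in 6-OHG and 14.2 ± 1.40 FPKM in Mod (0.43, 0.0153). The time of day at collection is not given, and its part in the Fabp7 levels was not tested.

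Set against Con, the 6-OHG libraries gave 30.7% of genes called, 16.3% as higher and 14.4% as lower. List counts there share the Con libraries with those of Mod. In that comparison 1 of 15 genes of synthesis, desaturation and elongation rose and 6 fell. Of 18 genes of beta-oxidation 1 rose and 7 fell, and of 13 of uptake and coenzyme A esters 1 rose and 4 fell. Of 19 clock genes 10 rose and 1 fell. Of 12 PPAR target genes 3 rose and 1 fell, and of 12 lipid droplet genes 3 rose and 0 fell. Of 9 PPAR, RXR and retinoic acid receptor genes 1 rose and 0 fell, and of 9 endocannabinoid genes 0 passed. Of the 4 other binding protein genes 0 rose and 2 fell. Among the reported regulators of Fabp7, Nr1d2 rose by 0.52 (limma adjusted p of 0.000663), while the Notch target Hes5 fell by 0.71 (0.0306) and Nfia by 0.17 (0.0282). Leaving out single libraries ended the calls of Hes5 (5 of 13, adjusted p of 0.0885 without Con replicate 1) and Nfia (4 of 13, adjusted p of 0.0755 without Con replicate 2).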

How the data were processed

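Per the labels, Trizol extracts of brain were sequenced on an Illumina NovaSeq, with 150 bases from each end. The deposited table holds FPKM computed by the authors, 1 column per library. The submitters' processing notes name HISAT2 2.2.1 and StringTie 2.1.6, beside edgeR, DESeq2, featureCounts 1.5.0-p3, FastQC and cutadapt 1.9, without their roles, and the builds GRCm38 and mm10. Which tool made the FPKM, the annotation and the strand setting are not given in the sources used here. Of low values, 1.25% to 8.03% per library lay within 0.01 of a whole multiple of 1 read, so counts were not recovered.

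Symbols, coordinates and coding sequences came from GENCODE M21 on GRCm38 (37499 of 37636 IDs matched), and promoters from RefSeq (GRCm38.p6). Values were taken as log2(FPKM + 1), where differences of low genes are understated. For the 13905 genes whose mean reached 1 FPKM, linear models with 1 mean per group over all 13 libraries were fitted with limma 3.58.1 (R 4.3.3, trend on the mean) and adjusted by Benjamini-Hochberg, with calls at an adjusted p under 0.05. The procedure was tested on simulated data.

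The members and lists were chosen with earlier results of these data known. Genes named are the members, up to 4 called genes of each list and comparison with the largest change, and the genes most like a member. Markers were named after their values were seen. Samples were grouped by their labels. Same-numbered samples deviated together in some pairs and apart in others (-0.483 to 0.346). Samples of different number were not compared, so this cannot settle whether the numbers pair the samples. The main fit used no pairing. Alternatives changed the scaling, filter, pseudocount, length and GC trend, replicate block and libraries. In block fits Mod replicate 5, the only library of that number, has no weight in the differences.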

Additional observations from a re-analysis of the deposited data

Results flagged for a closer look

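Among 44 genes, the members and the list genes picked by the naming rule, 8 of 132 groups had a library set apart from the rest of its group by a gap beyond Dixon's 95% limit, and chance gives about 1 in 20. None was a member of the fatty acid binding set. In 6-OHG replicate 2, Acot7 was at 70.2 FPKM, against 48.6 to 51.9 FPKM in the other 6-OHG libraries, and Plin4 was at 18.0 FPKM, against 5.87 to 7.78 FPKM. Rora was at 9.62 FPKM in 6-OHG replicate 1, against 8.23 to 8.44 FPKM in the others, and at 4.27 FPKM in Con replicate 1, against 5.81 to 6.09 FPKM. Fabp1 was at 2.49 FPKM in Mod replicate 3, against 0 to 0.103 FPKM in the other Mod libraries.

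In Con replicate 4, Elovl7 was at 7.19 FPKM, against 5.56 to 5.74 FPKM in the other Con libraries, and Per1 was at 8.53 FPKM, against 12.0 to 12.2 FPKM. Dbp was at 12.8 FPKM in Con replicate 2, against 15.3 to 15.8 FPKM. These values are given with no explanation.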

How the results depend on the processing

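Fabp7 in 6-OHG against Mod kept its limma call without each of the 13 libraries in turn (-0.89 to -0.69, adjusted p up to 0.00806). It also kept it with libraries rescaled to equal sums (-0.69, 0.006) and with the replicate block (-0.69, 0.0233). The block gives Mod replicate 5, the only library of that number, no weight in the difference. Fabp7 lost the call with the length and GC trend removed together with the block (-0.63, 0.0603). Fabp5 was called with a filter at 5 FPKM (-0.26, 0.0373) and in 3 of 13 fits without 1 library (range -0.31 to -0.21), and Fabp3 in 0 settings. Fabp7 in 6-OHG against Con was -2.29 with a pseudocount of 0.1 FPKM. Without the 2 libraries that stand apart, an alternative chosen after seeing the data, Fabp7 in 6-OHG against Mod was -0.81 (0.0038) and 2919 genes were called.

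Genes called in Mod against Con numbered 3304, against 2061 with the 5 FPKM filter, which tests fewer genes, 2039 with the replicate block and 2157 with trend and block. In 6-OHG against Mod they numbered 2131, against 960 with the trend removed, 846 with the block, 46 with both, and 1349 without 6-OHG replicate 4 (1349 to 2344 without 1 library). In 6-OHG against Con they numbered 4268, against 2663 with the 5 FPKM filter. The cause was not tested where none is named.

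The share of calls that were higher moved with scaling. In 6-OHG against Mod it was 45.5%, against 77.7% with equal sums, 73.1% with mitochondrial genes left out of the sum, 69.6% with trend and block and 57.5% with quantile normalization. In Mod against Con it was 58.7%, against 40.6% with equal sums, and in 6-OHG against Con 64.2% with mitochondrial genes left out. Of 65 calls of list genes that the naming rule picked, not all of them named in the report, 30 held in every setting run (24 or 25 each), 35 were lost in at least 1 and 0 changed sign. The replicate block alone ended, among others, the calls of Slc27a1 (adjusted p of 0.068), Per1 (0.0613) and Ppargc1a (0.0868) in 6-OHG against Mod and of Nr1d2 (0.0608) in Mod against Con. Whether same replicate numbers pair the samples was not settled.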
